A study of Homo sapiens with 12 samples.

Results

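The genes described here are 9 transcription factors of kidney lineage and cell differentiation, PAX2, PAX8, HNF4A, LHX1, SOX4, SOX9, RUNX1, RUNX2 and ZIC2. They were chosen by name, with earlier results of these data known. Every probe set that the array's annotation assigns to one of these symbols was taken, which gave 39 of 54675 probe sets and covered 8 of the 9 genes. HNF4A had 0 annotated probe sets and was not analysed here. The cells were HK-2, an immortalised line of human renal proximal tubular epithelium grown in medium with EGF, hydrocortisone, insulin, transferrin and selenite. Cultures were exposed for 24 h or 48 h to Kbr, as the labels abbreviate the compound, at a dose given only as high, or to vehicle. This makes 4 groups of 3 biological replicates, Kbr cultures of 24 h, their controls of 24 h, and likewise Kbr cultures and their controls of 48 h, and p-values measure the spread between replicate cultures of 1 cell line. Neither the concentration nor the name of the vehicle is given in the sources used here.

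Kidney tubules arise from mesoderm that turns on PAX2, PAX8 and LHX1, and mature proximal tubule cells later depend on nuclear factors such as HNF4A. SOX4 and SOX9 are HMG-box factors of progenitor cells, and SOX9 is known to return in tubule cells after injury. RUNX factors bind DNA with the partner CBFB and are best known from blood and bone, while ZIC2 is a zinc finger factor known from the developing forebrain.

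Levels are log2 GCRMA values, in which a difference of 1 is a 2-fold change and values under 4 lie in the range where most of the array sits. The median of an array was 2.89 to 2.96, and 39.1% to 39.9% of its features exceeded 4. Precision is limited by having 3 arrays a group. Replicate 3 of Kbr 48 h lay farther from its group mean than the other arrays (root mean square deviation 0.290, against 0.164 to 0.228), so 48 h results are also given without it. In bulk RNA, fewer cells that carry a transcript and less transcript per cell cannot be told apart.

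The proximal tubule label was checked on 17 marker genes with a probe set. Of these, 5 exceeded 4 in at least 3 arrays (SLC4A4, GATM, MIOX, SLC3A1 and CDH6), while LRP2, CUBN, SLC34A1, SLC5A2, SLC22A6, AQP1, ANPEP and the other 5 stayed under 4 in all arrays. The summed linear level of the list ran from 4345 to 6316 in Kbr cultures and from 8760 to 12542 in control cultures at 24 h, and from 2567 to 3512 in Kbr cultures and from 10960 to 16963 in control cultures at 48 h. Of 9 fibroblast or stroma markers 3 exceeded 4 (COL1A1, DCN and LUM), and their list summed to 2759 to 3677 in Kbr cultures against 5306 to 7552 in control cultures at 24 h. At 48 h it summed to 1182 to 1577 in Kbr cultures, against 4986 to 5210 in control cultures. The 12 markers of other tubule segments, 3 of them over 4, summed to 251 to 624 in Kbr cultures and 407 to 812 in control cultures at 24 h, and to 259 to 429 in Kbr cultures and 474 to 1156 in control cultures at 48 h. Of the leukocyte and squamous epithelium markers 0 exceeded 4, and of 8 endothelial markers 1 did. The part of these marker shifts in the changes of the lineage factors was not tested.

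Of the 39 probe sets, 19 stayed under log2 4 in all 12 arrays. They were both probe sets of PAX2, 2 of 6 for SOX4, 5 of 6 for RUNX2 and 10 of 13 for RUNX1. Another 16 exceeded 4 in all arrays, and the other 4 crossed it (LHX1 206230_at, RUNX1 209359_x_at, RUNX2 232231_at and ZIC2 223642_at). All 13 RUNX1 probe sets are annotated to RUNX1 together with LOC100506403 and LOC101928269, so their signal cannot be given to RUNX1 alone. The plot of every annotated probe set shows these levels. Kbr and control points lie mostly apart for the SOX4 probe sets over log2 4, for RUNX2 232231_at and for ZIC2 223642_at.

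**Figure D1:**
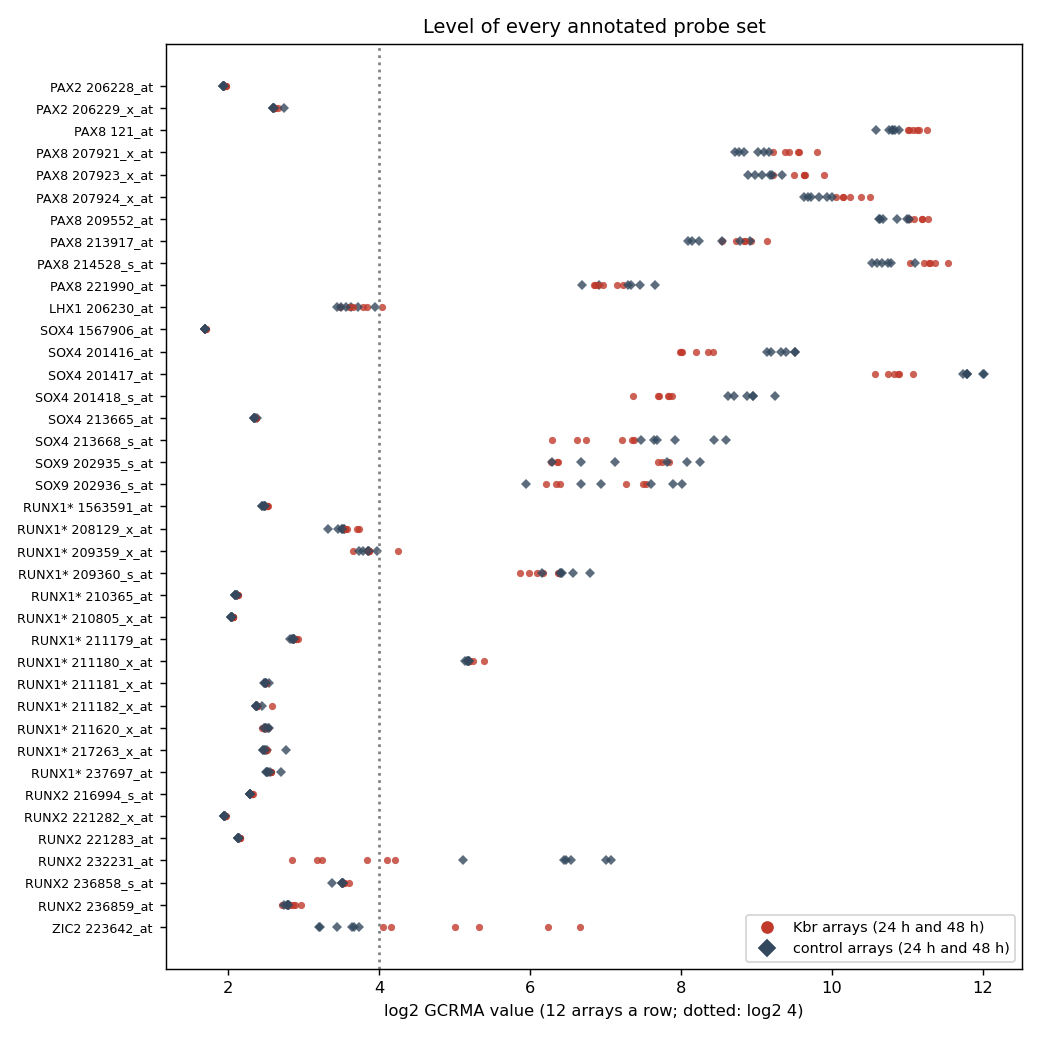
Log2 GCRMA value (horizontal axis) of each of the 39 probe sets annotated to the named factors (rows), 12 arrays a row, with Kbr arrays as circles and control arrays as diamonds. The dotted line marks log2 4, under which 19 probe sets lie in all arrays; RUNX1* marks probe sets also annotated to 2 other loci.

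Promoter windows of the factors whose levels moved most are shown for their sequence context, since SOX4 and RUNX2 fell together and ZIC2 went the other way. Each is the stretch of 250 bases just upstream of an annotated start, from RefSeq on GRCh38.p14, given 5′ to 3′ on the gene's strand, which is + for these. Capitals mark matches on either strand to 4 short motifs. The RUNX core, bound by RUNX proteins, was searched as TGTGGT. The box named after its letters CCAAT is a common promoter element. The GC box, bound by Sp1-type factors, was searched as GGGCGG. The core bound by SOX proteins was searched as ACAAT. RUNX2 has 2 windows, at chr6:45328080-45328329 and at chr6:45422025-45422274, SOX4 has 1 at chr6:21593501-21593750 and ZIC2 has 1 at chr13:99981534-99981783.
RUNX2 window 1: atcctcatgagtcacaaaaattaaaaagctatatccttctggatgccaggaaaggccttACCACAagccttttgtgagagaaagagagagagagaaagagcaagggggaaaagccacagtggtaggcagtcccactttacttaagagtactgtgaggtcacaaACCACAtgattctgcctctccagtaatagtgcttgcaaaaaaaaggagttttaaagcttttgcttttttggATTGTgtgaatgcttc
RUNX2 window 2: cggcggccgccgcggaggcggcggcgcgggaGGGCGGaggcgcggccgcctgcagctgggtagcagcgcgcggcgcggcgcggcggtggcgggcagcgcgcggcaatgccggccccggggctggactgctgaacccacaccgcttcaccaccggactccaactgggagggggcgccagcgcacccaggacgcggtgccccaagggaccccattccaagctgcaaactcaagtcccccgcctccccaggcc
SOX4: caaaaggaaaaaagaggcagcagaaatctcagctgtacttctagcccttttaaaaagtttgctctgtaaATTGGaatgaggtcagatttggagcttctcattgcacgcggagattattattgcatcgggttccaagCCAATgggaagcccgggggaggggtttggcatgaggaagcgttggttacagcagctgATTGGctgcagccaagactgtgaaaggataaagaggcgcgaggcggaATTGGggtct
ZIC2: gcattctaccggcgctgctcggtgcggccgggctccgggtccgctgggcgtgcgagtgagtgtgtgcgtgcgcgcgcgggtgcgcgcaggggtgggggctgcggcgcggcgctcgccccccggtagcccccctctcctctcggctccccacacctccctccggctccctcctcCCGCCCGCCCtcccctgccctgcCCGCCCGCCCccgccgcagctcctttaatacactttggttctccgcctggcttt
The first RUNX2 window holds 2 RUNX cores, which begin at -191 and -87 relative to the annotated start, and 1 SOX core. The second holds 1 GC box and has 78% G and C, against 41.6% in the first. The SOX4 window holds 4 CCAAT boxes at 48.8% G and C, and the ZIC2 window holds 4 GC boxes, in 2 overlapping pairs, at 75.6%. Over all 35116 promoter windows of this length the RUNX core occurs in 11%, the CCAAT box in 32%, the GC box in 42.6% and the SOX core in 24.6%, and the median content of G and C is 58%. A match describes letters only. Of the 9 factors 7 had a promoter in the table, and SOX9 and LHX1 are named only. Of the printed windows, the CCAAT box is found in that of SOX4 alone. It is not particular to SOX4, since windows not printed hold it too, 2 times for PAX8, 2 for RUNX1 and 1 for HNF4A.

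The first question was which of the factors differed between Kbr and control cultures of the same age. Each gene was represented by its single-gene probe set of highest mean and tested with limma among all genes that exceeded log2 4 in at least 3 arrays, and a gene was called at a Benjamini-Hochberg adjusted p under 0.05. This left 5 testable factors, PAX8, SOX4, SOX9, RUNX2 and ZIC2. RUNX2 passed through its control arrays and a few Kbr arrays, and ZIC2 through its Kbr arrays, so the counts below describe the factors and are no measure of how often they respond. At 24 h PAX8 was called higher and SOX4 and RUNX2 were called lower, 3 of the 5, where 32.4% of all 10574 genes tested were called (12.4% higher and 20% lower). At 48 h the same 3 factors were called in the same directions and ZIC2 was called higher, 4 of the 5, where 59.6% of all genes were called (26.9% higher and 32.8% lower). The median log2 fold change of all genes tested was -0.06 at each time. These fits leave out the replicate number, by which the arrays pair. With that number as a block, 3 factors and 5072 of all genes were called at 24 h, and 4 factors and 7338 genes at 48 h.

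PAX8, a paired-box factor that stays on in mature tubule cells, was higher with Kbr at both times. At 24 h probe set 214528_s_at read 11.31, 11.03 and 11.36 in Kbr cultures, against 10.66, 10.60 and 10.78 in control cultures. The 48 h values were 11.29, 11.22 and 11.54 in Kbr cultures, against 10.75, 10.53 and 11.10 in control cultures. All Kbr arrays lay above all control arrays at each time, as 51.6% of all genes separated in one direction or the other at 24 h and 62.8% at 48 h. The group means were 11.23 ± 0.18 with Kbr and 10.68 ± 0.09 in control cultures at 24 h (SD, n = 3 each), a rise of 0.55 on the log2 scale (SE 0.15, 1.46-fold, limma adjusted p = 0.0188). At 48 h they were 11.35 ± 0.17 with Kbr and 10.79 ± 0.29 in control cultures (SD, n = 3 each), a rise of 0.56 (SE 0.15, 1.47-fold, limma adjusted p = 0.00877), and 0.46 without replicate 3 of Kbr 48 h. The 24 h call was lost without replicate 1 or 3 of Kbr 24 h or replicate 1 or 2 of control 24 h (limma adjusted p 0.0585 to 0.0696), and the 48 h call was lost where unsuffixed probe sets were preferred (0.28, limma adjusted p = 0.0792).

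The 8 PAX8 probe sets did not all move alike. Tested one by one, 4 rose at 24 h (121_at, 207921_x_at, 207924_x_at and 214528_s_at, by 0.32 to 0.56 on the log2 scale), where 11.3% of 22215 probe sets were called higher and 25.7% in either direction. At 48 h these and 207923_x_at rose, by 0.34 to 0.58, where 26.8% of probe sets were called higher and 54.6% in either direction. The 24 h rises of 207921_x_at, 207924_x_at and 214528_s_at were each lost without a filter on low values and without replicate 1 or 3 of Kbr 24 h or replicate 1 or 2 of control 24 h (limma adjusted p 0.0661 to 0.128). That of 121_at was lost with the 24 h groups alone, without any replicate of Kbr 24 h and without replicate 1 or 3 of control 24 h (limma adjusted p 0.0517 to 0.0832). At 48 h, 207921_x_at and 207924_x_at were no longer called without replicate 3 of Kbr 48 h (limma adjusted p = 0.0502 and 0.0713) or replicate 2 of control 48 h (0.0561 and 0.0828), and 207924_x_at also with the 48 h groups alone (0.0587).
With the replicate number as a block, the rise of 207923_x_at at 24 h passed the test as well (limma adjusted p = 0.00809 against 0.0888 without it). The 24 h difference of 209552_at, 0.38 (limma adjusted p = 0.0510), passed with the block (0.00535) and in 5 other alternatives (limma adjusted p 0.0340 to 0.0499), and its 48 h difference of 0.28 passed with the block (0.0122).
Probe set 213917_at overlapped between Kbr and control arrays at both times. Its differences of 0.41 at 24 h and 0.35 at 48 h were not called (limma adjusted p = 0.217 and 0.219). In direction, probe set 221990_at went against the rest at 48 h. It read 6.85, 6.97 and 6.90 in Kbr cultures, against 7.66, 7.29 and 7.46 in control cultures. These did not overlap, as for 59.6% of all probe sets at 48 h. Its fall was 0.56 on the log2 scale at 48 h (SE 0.17, limma adjusted p = 0.0151), a call lost without replicate 1 of control 48 h (limma adjusted p = 0.0596), while at 24 h its difference was 0.10 (limma adjusted p = 0.707). The change of its Kbr effect between the times, -0.66 (SE 0.24), did not pass the test (limma adjusted p = 0.135). Over the 12 arrays its correlation with the other 7 PAX8 probe sets ran from -0.38 to 0.03, while the others correlated with each other at 0.41 to 0.98.

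PAX2, the sister gene of PAX8 in the early kidney, stayed at the low end of the scale. Probe set 206228_at read 1.93 to 1.97 and 206229_x_at 2.59 to 2.74 over the 12 arrays, so a Kbr effect was not measurable. LHX1, a LIM homeobox factor of the early nephron, read 3.78, 3.84 and 4.04 in Kbr cultures at 24 h, against 3.73, 3.63 and 3.94 in control cultures. The 48 h arrays read 3.61, 3.48 and 3.66 in Kbr cultures, against 3.56, 3.45 and 3.50 in control cultures. Only replicate 3 of Kbr 24 h exceeded 4, the groups overlapped at both times, and LHX1 was not tested.

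SOX4, an HMG-box factor active in many embryonic and progenitor cells, was about 2-fold lower with Kbr at both times. At 24 h probe set 201417_at read 10.83, 10.74 and 10.89 in Kbr cultures, against 11.998, 11.80 and 11.74 in control cultures. At 48 h its values were 11.08, 10.88 and 10.57 in Kbr cultures, against 12.01, 11.80 and 11.79 in control cultures. The groups stood well apart at both times, where 51.6% of all genes separated at 24 h and 62.8% at 48 h. The control level of SOX4 hardly moved between the times. The mean was 10.82 ± 0.08 with Kbr against 11.84 ± 0.14 in control cultures at 24 h (SD, n = 3 each), and 10.84 ± 0.25 with Kbr against 11.86 ± 0.13 in control cultures at 48 h. The log2 fold change was -1.02 at 24 h (SE 0.13, limma adjusted p = 0.000455) and -1.02 at 48 h (SE 0.13, limma adjusted p = 7.43e-05), and -0.89 at 48 h without replicate 3 of Kbr 48 h. The difference between these effects was 0.00 (95% interval -0.41 to 0.42, limma adjusted p = 0.997).

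The other SOX4 probe sets over log2 4 pointed the same way, so that all 4 were called lower at 24 h and 3 at 48 h, where 14.4% and 27.8% of all probe sets were called lower. Probe set 201416_at fell by 1.26 on the log2 scale at 24 h and by 1.10 at 48 h, and 201418_s_at fell by 1.12 and by 1.22. The fourth, 213668_s_at, read 7.23, 6.29 and 7.38 in Kbr cultures and 8.59, 7.48 and 8.44 in control cultures at 24 h. It read 7.35, 6.62 and 6.74 in Kbr cultures and 7.92, 7.65 and 7.68 in control cultures at 48 h. Its groups did not overlap at either time, as for 47.5% of all probe sets at 24 h and 59.6% at 48 h, and it varied more than the others within a group. It fell by 1.21 at 24 h (limma adjusted p = 0.0246), a call lost in 5 alternatives, among them the fits without replicate 2 of Kbr 24 h or replicate 1 or 3 of control 24 h (limma adjusted p 0.0668 to 0.0994). At 48 h its difference was -0.85 (limma adjusted p = 0.0551, and 0.00670 with the replicate number as a block), and it passed in 4 other alternatives, 1 of them without replicate 1 of Kbr 48 h (limma adjusted p 0.0169 to 0.0499).

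SOX9, which is known to mark tubule cells under repair, was lower at 48 h than at 24 h in culture, while its Kbr effects did not pass the test. At 24 h probe set 202935_s_at read 7.84, 7.75 and 7.70 in Kbr cultures, against 8.26, 7.81 and 8.07 in control cultures. At 48 h it read 6.27, 6.37 and 6.36 in Kbr cultures, against 7.13, 6.68 and 6.29 in control cultures. Kbr and control arrays overlapped at each time, whereas every 48 h array lay below every 24 h array. How many of all genes split by time in this way is not given here. The Kbr effect was -0.28 at 24 h (95% interval -0.69 to 0.12, limma adjusted p = 0.262) and -0.36 at 48 h (95% interval -0.77 to 0.04, limma adjusted p = 0.111), and -0.38 at 48 h without replicate 3 of Kbr 48 h. At 48 h it passed the test once replicate 3 of control 48 h, the lowest control array, was left out (-0.57, limma adjusted p = 0.0122).
The other SOX9 probe set, 202936_s_at, read 7.54, 7.50 and 7.28 in Kbr cultures at 24 h, against 8.01, 7.61 and 7.90 in control cultures. At 48 h it read 6.35, 6.40 and 6.21 in Kbr cultures, against 6.94, 6.67 and 5.94 in control cultures. Its Kbr arrays all lay below its control arrays at 24 h, where 47.5% of probe sets separated, and overlapped them at 48 h. Its differences of -0.40 at 24 h and -0.20 at 48 h did not pass the test (limma adjusted p = 0.200 and 0.465), and that at 48 h passed without replicate 3 of control 48 h (-0.49, limma adjusted p = 0.0226).

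The second question was how the factors differed between control cultures at 48 h and at 24 h. SOX9 averaged 6.70 ± 0.42 at 48 h and 8.05 ± 0.22 at 24 h (SD, n = 3 each). Its log2 fold change was -1.35 (SE 0.18, limma adjusted p = 0.00872), and 23 of 10574 genes had a more negative one. Probe set 202936_s_at differed by -1.32 on the log2 scale (limma adjusted p = 0.0139 for 202935_s_at and 0.0235 for 202936_s_at when tested by probe set, where 1.78% were called). SOX9 was the 1 factor of 5 called in this comparison, where 4.03% of all genes were called. Its call was lost when the 6 control arrays were fitted alone (limma adjusted p = 0.110), a fit that called 0 of 10574 genes and had 2140 at an unadjusted p under 0.05. RUNX2 differed by -0.79 (limma adjusted p = 0.194, and 0.0269 with the replicate number as a block), a call that the block alone gave.

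RUNX1 signal came from probe sets shared with the 2 other loci named above. At 24 h 209360_s_at read 6.09, 5.87 and 6.39 in Kbr cultures, against 6.41, 6.57 and 6.80 in control cultures. After 48 h it read 6.17, 6.37 and 5.99 in Kbr cultures, against 6.16, 6.40 and 6.43 in control cultures. The groups lay close but did not overlap at 24 h, where 47.5% of probe sets separated, and overlapped at 48 h. The fall of 0.48 on the log2 scale at 24 h (SE 0.16, limma adjusted p = 0.0499) lay at the threshold and was lost in 9 alternatives (limma adjusted p 0.0560 to 0.172). Of these, 5 left out 1 array, namely replicate 1 or 2 of Kbr 24 h or any replicate of control 24 h. At 48 h the difference was -0.16 (limma adjusted p = 0.435, and -0.06 on the log2 scale without replicate 3 of Kbr 48 h). The other testable probe set, 211180_x_at, read 5.14 to 5.40 over the 12 arrays, with differences of 0.05 and 0.08 that did not pass the test (0.26 at 48 h with quantile normalization, limma adjusted p = 0.0258).

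RUNX2, the RUNX factor known from bone formation, was lower with Kbr at both times, with the largest difference of the 5 tested factors at 24 h. At 24 h probe set 232231_at read 4.11, 3.84 and 4.21 in Kbr cultures, against 7.08, 6.45 and 7.00 in control cultures. The 48 h readings were 3.18, 2.85 and 3.25 in Kbr cultures, against 6.54, 5.12 and 6.48 in control cultures. Every Kbr array lay near or under log2 4 and every control array above 5. Of all genes, 51.6% separated at 24 h and 62.8% at 48 h. For RUNX2 replicate 2 was the lowest in all 4 groups. One replicate number was likewise lowest throughout for 26.9% of all 22215 tested probe sets, and for 7 of the factors' 18. The mean was 4.05 ± 0.19 with Kbr against 6.84 ± 0.34 in control cultures at 24 h (SD, n = 3 each), and 3.09 ± 0.21 with Kbr against 6.05 ± 0.81 in control cultures at 48 h.
The log2 fold change was -2.79 at 24 h (SE 0.33, limma adjusted p = 0.000275), and 8 of 10574 genes had a more negative one. At 48 h it was -2.95 (SE 0.33, limma adjusted p = 2.67e-05), and -3.03 without replicate 3 of Kbr 48 h. Since all Kbr arrays at 48 h lay under log2 4, the size there is best read as a bound: with values under 4 set to 4 the log2 fold change was -2.05. With an offset of 32 on the linear scale it was -1.60 at 24 h and -1.31 at 48 h. The other 5 RUNX2 probe sets read 1.95 to 3.60, so the RUNX2 result rests on 1 probe set.

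ZIC2 was the factor that came up with Kbr from a low level, and more so at 48 h. At 24 h probe set 223642_at read 5.01, 4.16 and 4.05 in Kbr cultures, against 3.74, 3.45 and 3.67 in control cultures. At 48 h it read 6.66, 6.24 and 5.33 in Kbr cultures, against 3.22, 3.20 and 3.64 in control cultures. All control arrays lay under log2 4 and all Kbr arrays above it. Of all genes, 51.6% separated at 24 h and 62.8% at 48 h. For ZIC2 replicate 1 was the highest Kbr array at both times. The difference of 0.79 at 24 h (SE 0.33) did not pass the test (limma adjusted p = 0.0871, and 0.0544 with the replicate number as a block).
At 48 h the mean was 6.08 ± 0.68 with Kbr against 3.35 ± 0.25 in control cultures (SD, n = 3 each), a rise of 2.72 on the log2 scale (SE 0.33, limma adjusted p = 4.09e-05). The rise was 3.10 without replicate 3 of Kbr 48 h, and 2.08, as a bound, with values under 4 set to 4. With an offset of 32 it was 1.26. ZIC2 has this 1 probe set, and the neighbouring gene ZIC5 read 2.33 to 2.39 over the 12 arrays.

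**Figure D2:**
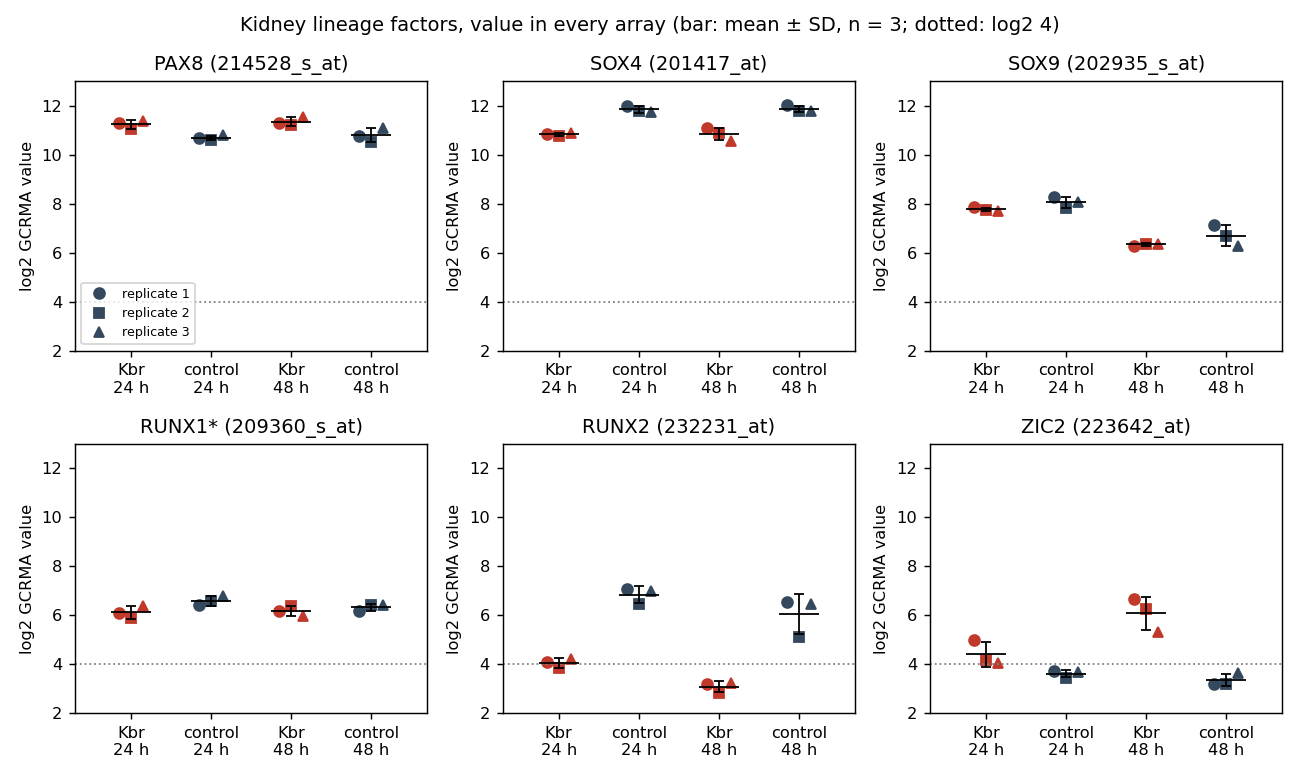
Log2 GCRMA value (vertical axis) of 1 probe set for each of 6 factors in every array, by group (horizontal axis), with the replicate number as symbol, Kbr in red, control in blue and the bar at the mean ± SD of 3 arrays. PAX8 and ZIC2 lie higher and SOX4 and RUNX2 lower in Kbr than in control cultures, and SOX9 is lower at 48 h than at 24 h in both; RUNX1* is a probe set shared with 2 other loci.

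The third question was whether the Kbr effect changed between 24 h and 48 h. ZIC2 was the 1 factor of 5 called here, where 5.58% of all genes were called. Its effect at 48 h exceeded that at 24 h by 1.94 on the log2 scale (SE 0.46, limma adjusted p = 0.0388). Since all control arrays lay under log2 4, the size is uncertain, and with values under 4 set to 4 it was 1.67 (limma adjusted p = 0.0498). The call was lost without a filter on low values (limma adjusted p = 0.0941), with the offset of 32 (0.98, limma adjusted p = 0.0501) and when any 1 of 9 arrays was left out (limma adjusted p 0.0613 to 0.0917). It was kept without replicate 1 of Kbr 24 h, replicate 3 of Kbr 48 h or replicate 3 of control 48 h. The differences of PAX8 (0.01), SOX4 (0.00), SOX9 (-0.08) and RUNX2 (-0.17) did not pass the test, with limma adjusted p between 0.867 and 0.997. The 95% interval for RUNX2 ran from -1.20 to 0.87, and its sign turned with values under 4 set to 4 (0.69).

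**Figure D3:**
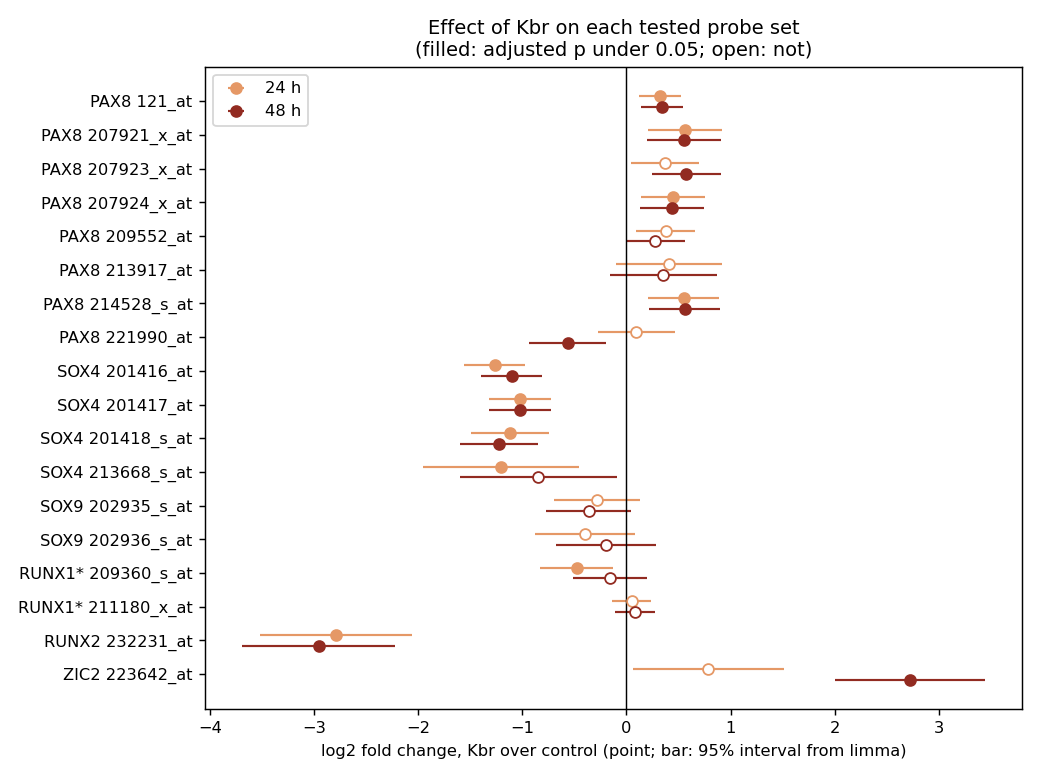
Log2 fold change of Kbr over control (horizontal axis, with the 95% interval from limma as a bar) for the 18 tested probe sets (rows) at 24 h in light and 48 h in dark colour, filled where the adjusted p was under 0.05. The SOX4 and RUNX2 intervals lie left of 0 at both times, those of ZIC2 lie right of it, and PAX8 221990_at lies left of it at 48 h; RUNX1* marks probe sets shared with 2 other loci.

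Among the 5 tested factors, SOX4 and RUNX2 had the most similar profiles over the 12 arrays (Pearson r = 0.91), and PAX8 and SOX4 ran most nearly opposite (r = -0.86), followed by RUNX2 and ZIC2 (r = -0.81). These values describe 12 arrays that share 4 groups. Of 10569 other genes, the profiles nearest to each factor by Pearson r were those of BRF2 (0.96) and HLA-E (0.94) for PAX8. For SOX4 they were GLRB (0.98) and ZNF22 (0.98), and for SOX9 ODF2 (0.92) and HMGN1 (0.92). For RUNX2 they were SSBP4 (0.99) and SREBF1 (0.98), and for ZIC2 KIN (0.99) and MKRN2 (0.98). With group means removed the SOX9 pairs fell to 0.33 and 0.38, while the other pairs stayed between 0.82 and 0.94. The antisense and neighbouring transcripts PAX8-AS1, SOX9-AS1, RUNX1-IT1, HNF4A-AS1 and ZIC5, chosen after the annotation was seen, stayed under log2 4 in all arrays.

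The other regulators of tubule identity that were called were all lower with Kbr. Of 34 listed tubule and epithelial identity factors 16 could be tested, and 7 fell and 0 rose at 24 h, where 20% of all genes were called lower. At 48 h 12 fell and 0 rose, where 32.8% of all genes were called lower. Their median log2 fold change was -0.36 at 24 h and -0.71 at 48 h, against -0.06 for all genes at each time. With the replicate number as a block 11 fell at 24 h, and 12 fell and 1 rose at 48 h. The block called more of all 10574 genes too, 5072 at 24 h and 7338 at 48 h in either direction. Without replicate 3 of Kbr 48 h 12 fell and 1, GLIS3, rose at 48 h. TFCP2L1, a factor of collecting duct cells, fell by 2.03 at 24 h and by 4.16 at 48 h. NR3C2, the mineralocorticoid receptor, fell by 1.80 and by 2.71, and IRX5, an Iroquois homeobox factor, fell by 1.47 and by 3.08. GRHL1, a grainyhead-like epithelial factor, fell by 1.31 at 24 h, and IRX3, an Iroquois factor of the nephron, fell by 2.24 at 48 h. The proximal tubule marker list moved with them: of its 5 tested genes 4 fell at 24 h and 5 at 48 h. Of the other segments' markers 3 were tested, and 0 fell at 24 h (1 with the block) and 2 at 48 h, while all 3 tested fibroblast or stroma markers fell at both times. The 1 tested endothelial marker was not called.

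Of 28 listed factors of nephron progenitors and early kidney 10 could be tested. At 24 h 2 fell and 0 rose, where 20% of all genes were called lower. At 48 h 4 fell and 2 rose, where 32.8% were called lower and 26.9% higher, so these shares lay near those of all genes. With the replicate number as a block 4 fell at 24 h, where 5072 of all 10574 genes were called in either direction. Without replicate 3 of Kbr 48 h 3 fell and 2 rose at 48 h. SIX5, a homeobox factor, fell by 1.07 and by 1.11. MEIS2, a homeobox partner of HOX proteins, fell by 0.71 and by 1.54. Its call at 24 h was lost without a filter on low values (limma adjusted p = 0.0507) and without replicate 2 or 3 of Kbr 24 h or replicate 1 or 2 of control 24 h (limma adjusted p 0.0542 to 0.0763). TBX18, a T-box factor of ureter mesenchyme, rose by 0.92 at 48 h. EYA4, a coactivator of the EYA family, fell by 0.85 at 48 h, a call lost in 7 alternatives (limma adjusted p 0.0743 to 0.371). Of these, 4 left out replicate 2 or 3 of Kbr 48 h or replicate 1 or 2 of control 48 h. The EYA4 difference of -0.56 and that of SALL1, -0.37, passed the test at 24 h only with the block (limma adjusted p = 0.0359 and 0.0237).

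**Figure D4:**
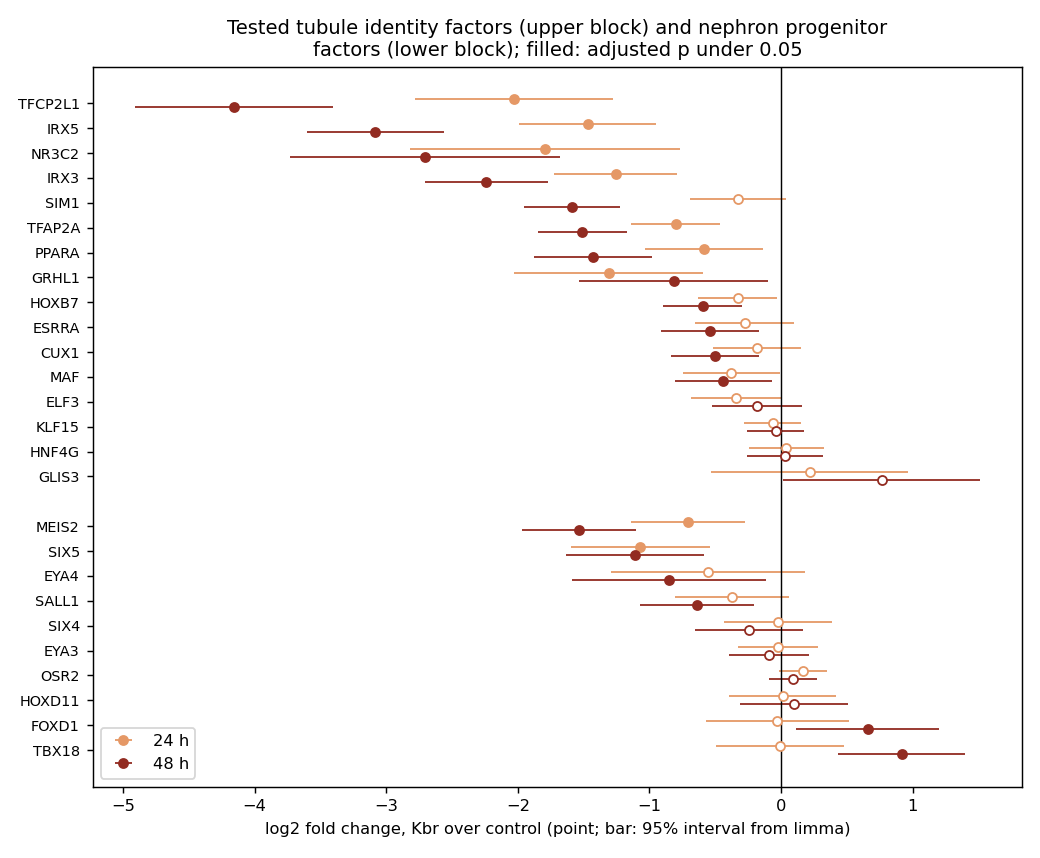
Log2 fold change of Kbr over control (horizontal axis, with the 95% interval from limma as a bar) for the 16 tested tubule identity factors (upper block) and 10 tested nephron progenitor factors (lower block) at 24 h in light and 48 h in dark colour. Filled points had an adjusted p under 0.05; of the upper block 12 are filled and lower at 48 h, and TBX18 and FOXD1 at the foot are filled and higher at 48 h.

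Relatives and partners of the factors gave short lists, since few passed the filter. PAX6, the 1 tested relative of 7 in the PAX family, had differences of -0.68 and -0.50 that passed the test only with the replicate number as a block at 48 h (limma adjusted p = 0.0188) and at 24 h with the block (0.00743), with the 24 h groups alone (0.0261) or without replicate 3 of control 24 h (0.0453). Of 18 other SOX genes 3 were tested, and SOX12, the closest relative of SOX4 among them, fell by 0.92 at 24 h and by 1.26 at 48 h. Its 24 h call was lost without a filter on low values and without replicate 2 of Kbr 24 h or replicate 1 of control 24 h (limma adjusted p 0.0568 to 0.0757). SOX6, at 0.32, passed the test at 48 h only with the block, with quantile normalization or without replicate 3 of Kbr 48 h.
CBFB, the shared partner subunit of RUNX proteins, rose by 0.44 at 24 h and by 0.35 at 48 h. It was the 1 of 6 tested RUNX partners called at 24 h and 1 of 2 called at 48 h, both higher, where 32.4% and 59.6% of all genes were called. With the block 3 were called at each time, where 5072 of all 10574 genes were called at 24 h and 7338 at 48 h. The corepressors CBFA2T2 (0.78, limma adjusted p = 0.000688) and TLE5 (-0.40, limma adjusted p = 0.00841) were added at 24 h. TLE5 (-0.74, limma adjusted p = 0.000121) was added at 48 h. TLE5 at 48 h also passed the test in 5 other alternatives (limma adjusted p 0.0178 to 0.0489). CBFA2T2 rose by 0.93 at 48 h, a call lost without a filter or without replicate 1 or 2 of Kbr 48 h or replicate 3 of control 48 h (limma adjusted p 0.0774 to 0.113).

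Of 9 listed ZIC and GLI factors 3 were tested, of which 1 fell at 24 h and 2 at 48 h, where 20% and 32.8% of all genes were called lower. GLIS2, a zinc finger factor of kidney epithelium, fell by 0.57 at 24 h and by 1.46 at 48 h, and GLI3, an effector of Hedgehog signalling, fell by 1.45 at 48 h. The GLIS2 call at 24 h was lost without replicate 1 of control 24 h (limma adjusted p = 0.0524). Of 19 LIM homeobox genes and cofactors 7 were tested. At 24 h 2 fell, where 20% of all genes were called lower, and at 48 h 2 fell and 1 rose. With all arrays and no block, the 48 h shares were below the 32.8% lower and 26.9% higher of all genes. With the block, or without replicate 3 of Kbr 48 h, 2 fell and 2 rose at 48 h. Of all 10574 genes, these fits called 7338 and 6261 at 48 h in either direction. LDB1, a LIM cofactor, differed by 0.69 at 48 h (limma adjusted p = 0.0738). It passed with the block (limma adjusted p = 0.00790) or without replicate 3 of Kbr 48 h (0.0120). Quantile normalization (0.0275) and the mean of its probe sets (0.0461) also gave the call. SSBP2 and SSBP3, DNA-binding partners of LIM complexes, fell by 1.42 and 0.77 at 24 h and by 2.65 and 1.29 at 48 h. The SSBP3 call at 24 h was lost with the mean of its probe sets or without replicate 1 of control 24 h (limma adjusted p = 0.0812 and 0.0516). ISL2, a LIM homeobox factor of neurons, rose by 0.81 at 48 h, a call lost in 5 alternatives (limma adjusted p 0.0631 to 0.0886), 3 of which left out replicate 1 or 2 of Kbr 48 h or replicate 3 of control 48 h.

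Genes known as targets were sparse among those tested. Of 13 known targets of HNF4A 2 were tested, and SERPINA1, the gene of alpha-1-antitrypsin, fell by 0.52 at 24 h and by 1.495 at 48 h, a 24 h call lost without replicate 3 of Kbr 24 h or replicate 1 of control 24 h (limma adjusted p = 0.0620 and 0.0668). APOM differed by -0.91 at 48 h and passed the test only with the block or without replicate 2 of control 48 h (limma adjusted p = 0.0313 and 0.00736). Of 12 targets of RUNX factors 3 were tested. CDKN1A, a cell cycle inhibitor, rose by 0.62 and by 1.68, and VEGFA, an angiogenic growth factor, rose by 2.22 at 48 h. At 24 h VEGFA differed by 0.87, which passed the test with the mean of its probe sets (limma adjusted p = 0.0415) or with the 24 h groups alone (0.00668). SPP1, a secreted bone and kidney protein, differed by 0.11 at 24 h and by 0.10 at 48 h, neither of which passed the test. At 48 h it passed with the mean of its probe sets (0.53, limma adjusted p = 0.0212).
Of 10 targets of SOX9 and SOX4 4 were tested. COL27A1, a cartilage collagen, fell by 1.03 and by 1.75. TEAD2, a partner of YAP, differed by -0.69 at 24 h, which passed the test with the block (limma adjusted p = 0.0267) or with the 24 h groups alone (0.0295). It fell by 0.92 at 48 h, a call lost in 7 alternatives (limma adjusted p 0.0641 to 0.162), 4 of which left out replicate 1 or 2 of Kbr 48 h or replicate 1 or 3 of control 48 h. MYC, the 1 tested target of PAX2 and PAX8, differed by -0.38 at each time and passed the test only at 48 h, with the block or without replicate 1 of Kbr 48 h (limma adjusted p = 0.0412 and 0.0437).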

How the data were processed

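Messenger RNA of 12 HK-2 cultures was measured on Affymetrix arrays. The authors deposited log2 values from GCRMA (version not given), per the submitters' processing notes; genome build and detection calls are not given in the sources used here. Of 54675 probe sets, 41091 carry 1 symbol, 1801 several, 11721 none and 62 are controls. The highest-mean single-gene probe set stood for each of 19775 genes, and 10574 exceeding log2 4 in at least 3 arrays were tested (22215 probe sets likewise). Groups came from the sample titles. Differences were tested two-sided with limma (version 3.58.1, under R 4.3.3) by lmFit and eBayes on 12 arrays (8 residual, 2.87 prior degrees of freedom) with Benjamini-Hochberg adjustment over all features. The fit was tested on simulated data.

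After removal of group means, the 18 pairs of arrays with one replicate number correlated at 0.23 to 0.63. The other 36 pairs correlated at -0.38 to 0.00, so the numbers pair the arrays. The main fits leave this pairing out, and the block is printed where it changes a call.

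The factors, the 11 lists of related genes and the 6 marker lists were chosen with earlier results of these data known. Named were all factors, up to 4 genes per related list and time with the largest change (called ones first) and the 2 genes most alike each factor. Alternatives were other probe set choices, filters, scalings, offsets and priors, only the groups compared, the block, each array left out, and, added after seeing the data, values under log2 4 set to 4. Promoters came from RefSeq. Python 3.11.15, pandas 2.3.3 and matplotlib 3.10.9 made tables and plots.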

Additional observations from a re-analysis of the deposited data

Results flagged for a closer look

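The Kbr effect on ZIC2 differed between the times by a test of the difference itself: the log2 fold change was 2.72 at 48 h and 0.79 at 24 h, a difference of 1.94 (limma adjusted p = 0.0388). The call was lost in 11 alternatives, 9 of which left out 1 array (limma adjusted p 0.0501 to 0.0941), and with values under log2 4 set to 4 the difference was 1.67 (limma adjusted p = 0.0498). All 3 Kbr arrays lay above all 3 control arrays at each time. Of all genes tested, 51.6% separated in one direction or the other at 24 h and 62.8% at 48 h. All 6 control arrays lay under log2 4.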

How the results depend on the processing

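Signals near log2 4 limit the sizes given for RUNX2 and ZIC2, RUNX1 signal is shared with 2 loci, and RUNX2 and ZIC2 rest on 1 probe set each. Over all alternatives, 786 values of the factors kept their direction and side of the threshold, 58 lost and 18 gained a call and 31 changed sign, each of these uncalled. At gene level, a 2-fold minimum left 766 genes called at 24 h, 2475 at 48 h, 98 between control times and 276 for the change of effect (1432 and 5001 probe sets). An adjusted p under 0.01 left 1830 at 24 h, 31 between control times and 32 for the change (2731 probe sets at 24 h). With no filter, 230 and 386 genes were called between control times and for the change. The replicate block called 2202 and 2140, 5072 genes at 24 h and 7338 at 48 h, and 9254 probe sets at 24 h. It changed no call of a factor other than those given above. Control arrays alone called 0 genes by limma, with 2140 at an unadjusted p under 0.05. Leaving out 1 array gave 2255 to 3231 genes at 24 h, 5599 to 6261 at 48 h, 28 (without control 24 h replicate 3) to 655 between control times, 136 (without control 24 h replicate 3) to 1507 (without Kbr 48 h replicate 3) for the change, and 3509 to 5348 and 10522 to 11963 probe sets. Of the 5 factors, 2 to 3 were then called at 24 h, 4 to 5 at 48 h, 1 between control times and 0 to 1 for the change. Between control times 0 were called with control arrays alone and 2 with the block, and for the change 0 with an adjusted p under 0.01, a filter at log2 6, no filter or an offset of 32. Uncalled values that turned sign were the change for PAX8 (-0.076 with the mean of probe sets, -0.099 with unsuffixed ones, -0.0092 with quantile normalization; -0.12 to 0.16 with 1 array left out), SOX4 (-0.022 with quantile normalization; -0.12 to 0.14), SOX9 (0.062 with the mean of probe sets; -0.29 to 0.14) and RUNX2 (0.29 with the offset, 0.69 with values set to 4; -0.63 to 0.082). Also turned were SOX4 between control times (-0.12 with the mean of probe sets; -0.052 to 0.099), PAX8 between control times (-0.045 to 0.24), PAX8 221990_at at 24 h (-0.049 to 0.27), SOX9 202936_s_at at 48 h (-0.49 to 0.012), TUBB3 at 24 h (-0.20 to 0.17), RUNX1 209360_s_at at 48 h (0.0020 with quantile normalization) and COL11A2 at 48 h (0.12 with quantile normalization; -0.28 to 0.10). The causes were not tested. No RUNX2 value could be had from the mean of its probe sets, and none for ZIC2 with the filter at log2 6, which 2 of its arrays passed.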
